A study of Mus musculus with 7 samples.

Results

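The Obox genes encode a family of oocyte-specific homeobox proteins, and in the mouse the protein-coding members lie on chromosome 7. The 5 genes described here are the rows of the deposited count table with the symbols Obox1, Obox2, Obox5, Obox3 and Obox6, which are 5 of 26586 symbols. They were taken by name, with earlier results of these data known. Obox1, Obox2 and Obox5 were treated as maternal members, whose transcripts are laid down in the oocyte, and Obox3 and Obox6 as zygotic members, whose transcripts the embryo makes itself. All 7 libraries were single C57BL/6 embryos, numbered here as replicates 1 to 7. They had been flushed from the oviduct or uterus of L13a+/- females 3 days post coitum, after crosses between L13a+/- mice, and were labelled as morulae. L13a is the ribosomal protein gene with the symbol Rpl13a. The labels name neither the genotype nor the sex or litter of an embryo, and they give no treatment. The embryos therefore form 1 group, and every comparison below is between genes or classes of genes within these 7 embryos. Nothing says that they came from separate litters, so p-values reflect only how these samples scatter, and that scatter may be technical.

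A homeobox encodes a DNA-binding fold of helices, and the Obox proteins belong to the paired-like branch of the homeobox genes, near Crx and Otx. In mice the oocyte stores maternal Obox transcripts, and zygotic members come on around the 2-cell stage, when the embryonic genome starts to be read. Obox proteins are known there as redundant activators of that first wave of transcription, so that mice tolerate the loss of Obox6 alone. By the morula stage most maternal transcripts have normally been degraded, and the question put to these data was which of the 2 classes each embryo held.

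The libraries were very uneven in depth. Total counts ran between 139619 in replicate 6 and 33123742 in replicate 4, and between 1749 and 12064 genes had a count in those same libraries. A count of 0 therefore allowed up to 21.5 CPM (the count over the library total, scaled to 1e6) in replicate 6 but 0.0906 CPM in replicate 4, taking 3 counts as the limit. The libraries carry no molecular identifiers, so the 95% exact Poisson and binomial intervals below cover counting error only. A morula label was checked against lineage genes. Cdx2, a trophectoderm regulator, and Nanog, a pluripotency regulator, had 105 and 78.4 CPM in replicate 4 and a count of 0 in the other 6 embryos. Pou5f1, a further pluripotency regulator, had 51.1, 513 and 295 CPM in replicates 2, 4 and 7 and a count of 0 elsewhere. Of 28 morula lineage genes, 9, 17, 7, 24, 7, 3 and 14 were counted in replicates 1 to 7. In these whole-embryo libraries fewer cells and less RNA per cell cannot be told apart.

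Except for Obox6, the members are close copies where their coding bases align, and their sequences bear on every count. The stretches below are the coding bases of the homeobox around its most conserved codons, taken from GENCODE M21 transcripts of GRCm38 and written 5′ to 3′ on the coding strand. They were placed by the invariant tryptophan and asparagine codons of the third helix, searched on the coding strand, in a window chosen after the sequences were seen. Capitals mark bases that differ from Obox5.
Obox1: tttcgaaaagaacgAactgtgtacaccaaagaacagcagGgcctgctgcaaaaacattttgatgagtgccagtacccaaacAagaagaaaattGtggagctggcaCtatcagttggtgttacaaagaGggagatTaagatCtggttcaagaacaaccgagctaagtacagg
Obox2: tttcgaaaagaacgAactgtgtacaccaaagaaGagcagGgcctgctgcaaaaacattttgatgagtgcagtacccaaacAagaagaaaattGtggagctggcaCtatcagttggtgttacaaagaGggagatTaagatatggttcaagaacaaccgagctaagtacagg
Obox5: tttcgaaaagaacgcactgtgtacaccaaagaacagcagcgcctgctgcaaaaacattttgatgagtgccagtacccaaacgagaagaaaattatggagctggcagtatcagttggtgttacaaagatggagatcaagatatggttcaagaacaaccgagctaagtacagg
Obox3: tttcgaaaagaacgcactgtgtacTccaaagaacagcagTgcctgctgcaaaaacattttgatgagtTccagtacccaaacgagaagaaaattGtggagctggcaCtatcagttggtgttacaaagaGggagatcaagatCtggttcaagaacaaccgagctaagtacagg
Obox6: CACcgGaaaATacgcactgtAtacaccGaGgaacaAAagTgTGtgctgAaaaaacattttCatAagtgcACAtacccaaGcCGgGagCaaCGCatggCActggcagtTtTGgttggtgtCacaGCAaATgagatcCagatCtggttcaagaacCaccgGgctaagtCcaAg
Obox1 and Obox2 each differed from Obox5 at 8 bases. The Obox2 model also lacked 1 base there, so that its motif lay out of frame with the annotated start. Obox3, a zygotic member, differed from maternal Obox5 at 7 bases, while Obox6 differed at 45. By this stretch Obox3 thus sat with the maternal members, and Obox6 stood apart, with 73.7% of bases shared with Obox5 against 94.7 to 95.9% for the other 3.

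Over aligned coding bases, with gaps left out, Obox1 and Obox2 shared 98.5% of 453 bases, and Obox6 shared 76.6 to 81.1% with each of the others. Over all alignment columns, gaps included, Obox1 and Obox2 were identical in 72.9% of 612. Their annotated coding sequences have 612 and 453 bases. By this measure Obox6 was identical to the others in 33.3 to 68.0% of columns. The pairs of Obox1 or Obox2 with Obox5 or Obox3 lay within that range, at 42.0 to 67.0%. Obox5 and Obox3 were identical in 81.7%. With gaps included, Obox6 thus did not stand apart from the other members. The risk of misplaced reads was gauged by the 50-base words of each gene's longest transcript that also occur in a transcript of another gene. Such words made up 59.3% of Obox1 and 63.0% of Obox2, nearly all of them shared between that pair. They were 232 of 1782 words of Obox5, and made up 25.2% of Obox3 and 5.02% of Obox6. For Obox5 the main partner was Obox7, with 8.70% of words, and for Obox3 it was the pseudogene Obox3-ps3, with 18.3%. Other members held 3.48% of Obox5 words, 0.76% of Obox3 words and 0 of Obox6 words. Most of the length of Obox5 and Obox6 was thus specific to them, whereas the split between Obox1 and Obox2 is uncertain. The sources used here do not give how the authors treated reads that match several genes, or the strand of a read.

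**Figure D1:**
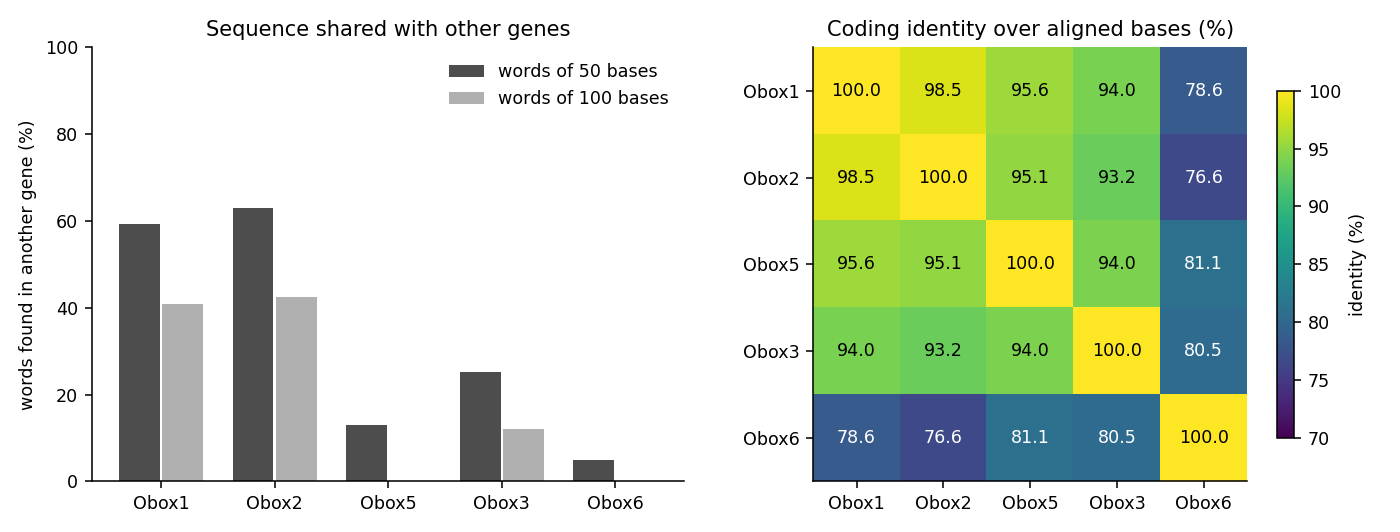
Left, the share of 50-base and 100-base words of each gene's longest transcript that also occur in a transcript of another gene (%). Right, identity over aligned coding bases between members (%), where Obox1 and Obox2 reach 98.5% and Obox6 is at most 81.1% identical to any other.

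The 5 members spanned 450958 bp of chromosome 7 in GRCm38. Obox7 and Obox8, also annotated as protein coding, lay outside this span on chromosome 7. They were at 14659496 to 14665996 and 14331436 to 14333557. Obox2 (ENSMUSG00000074369.12) lay at 15388721 to 15398545 and Obox1 (ENSMUSG00000054310.16) at 15388948 to 15556866, both on the plus strand. The Obox1 model spans Obox2 because 1 or more of its 6 transcripts start there, and RefSeq places Obox1 at 15547257 to 15556846. Obox5 (ENSMUSG00000074366.9) lay at 15750131 to 15759800 on the plus strand. Obox3 (ENSMUSG00000066772.12), at 15479825 to 15639902, and Obox6 (ENSMUSG00000041583.8), at 15833241 to 15839678, were on the minus strand. The Obox3 model overlaps that of Obox1, and RefSeq places Obox3 at 15625306 to 15639777. GENCODE names 55 Obox genes, of which 7 are annotated as protein coding and 48 carry a pseudogene symbol, and the count table held 5 of these symbols and 1 under an older one. In the 250 bases before the start of transcription, from the RefSeq promoter table for GRCm38, Obox1 and Obox5 were identical in 87.0% of alignment columns. Obox3 was identical to them in 61.1 and 64.4%, and Obox2 in 37.3 to 45.6% of columns with any of the others. The Obox2 window was offset against the others, which limits its figures. A stretch held by all these promoters began at position 1 from the annotated start of Obox2. In Obox1, Obox3, Obox5 and Obox7 it began at -96, -107, -108 and -82. How far the offset lowered the Obox2 identity was not tested. Motifs were searched in these same 250 bases before the start. An E-box (CANNTG on either strand) was found there for Obox2, Obox1, Obox5 and Obox7 and not for Obox3, while 66.2% of 32851 promoters hold one. The motif TAATTG, bound by Nobox, was found in none of the promoters of Obox1, Obox2, Obox5, Obox7 and Obox3, against 7.17% of all promoters. The promoter of Obox6 was not analysed here. These matches describe letters and show no binding.

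Obox5 was the most abundant member and the maternal member found in the most embryos. It had 1505 CPM (1434 to 1577), 644 CPM (631 to 656) and 4365 CPM (4215 to 4520) in replicates 1, 2 and 3. In replicates 6 and 7 it had 602 CPM (480 to 745) and 2099 CPM (2078 to 2121). It had a count of 0 in replicates 4 and 5. Replicate 4 was the deepest library of all, and a count of 0 allowed at most 0.0906 and 1.09 CPM in these 2 libraries. The shallowest library, replicate 6, still held 84 Obox5 counts. Per kilobase of transcript, the level of Obox5 ranked 7 of 3158 counted genes in replicate 3, 26 of 8012 in replicate 7 and 46 of 4632 in replicate 1.

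Obox1, the second maternal member by level, was found in replicates 1, 2 and 7 at 166, 176 and 212 CPM. Replicates 3, 4, 5 and 6 had a count of 0. Unlike Obox5, Obox1 was thus at 0 in replicate 3, where Obox5 was at its highest and the limit for Obox1 was 4.13 CPM. In replicate 6 the limit of 21.5 CPM was still below the 3 levels seen elsewhere. Obox2 was counted in the same 3 embryos, at 19.2, 60.8 and 133 CPM. The count of Obox1 was 8.64 times that of Obox2 in replicate 1 (95% interval 5.54 to 14.1), 2.90 times in replicate 2 (2.70 to 3.12) and 1.59 times in replicate 7 (1.51 to 1.68). The intervals did not overlap, so the split between these near-identical genes differed between embryos by more than counting error.

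A further maternal relative was found after the values were seen. The symbol Gm4745 of the count table is an older name of Obox7 in the RefSeq gene table. It had 7, 1 and 2 counts in replicates 1, 2 and 3 and 599 counts, or 35.0 CPM, in replicate 7. It had a count of 0 in replicates 4, 5 and 6. Its counts came from the embryos that also held Obox5, with which it shares sequence.

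Obox6 was the leading zygotic member. It had a count of 0 in replicates 1 and 6, where the limits were 2.62 and 21.5 CPM. Replicates 2 and 3 had 418 CPM (408 to 428) and 2462 CPM (2350 to 2579). Replicates 4 and 5, the embryos with no maternal member, had 53.4 CPM (50.9 to 55.9) and 114 CPM (101 to 127). Replicate 7 had 195 CPM (189 to 202). Obox6 was therefore seen in 5 embryos, with its highest level in replicate 3, as for Obox5, and its lowest counted level in the deepest library. Per kilobase it ranked 14 of 3158 counted genes in replicate 3 and 1844 of 10632 in replicate 4.

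Obox3, known in mice as a zygotic activator, was the least abundant member. It had 19.3 CPM (17.2 to 21.5) in replicate 2 and 81.7 CPM (77.5 to 86.1) in replicate 7, and a count of 0 in the other 5 embryos. Both embryos with Obox3 also held all 4 other members. Scaling every library to the total of replicate 6 did not change the number of embryos with an expected count of at least 1. It was 3 for Obox1, 3 for Obox2, 5 for Obox5, 2 for Obox3 and 5 for Obox6. The scaled counts of Obox2 in replicate 1 and of Obox3 in replicate 2 were each 2.69. These are below the 3 counts taken as the limit above, so the result for Obox2 and Obox3 depends on the threshold of 1.

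**Figure D2:**
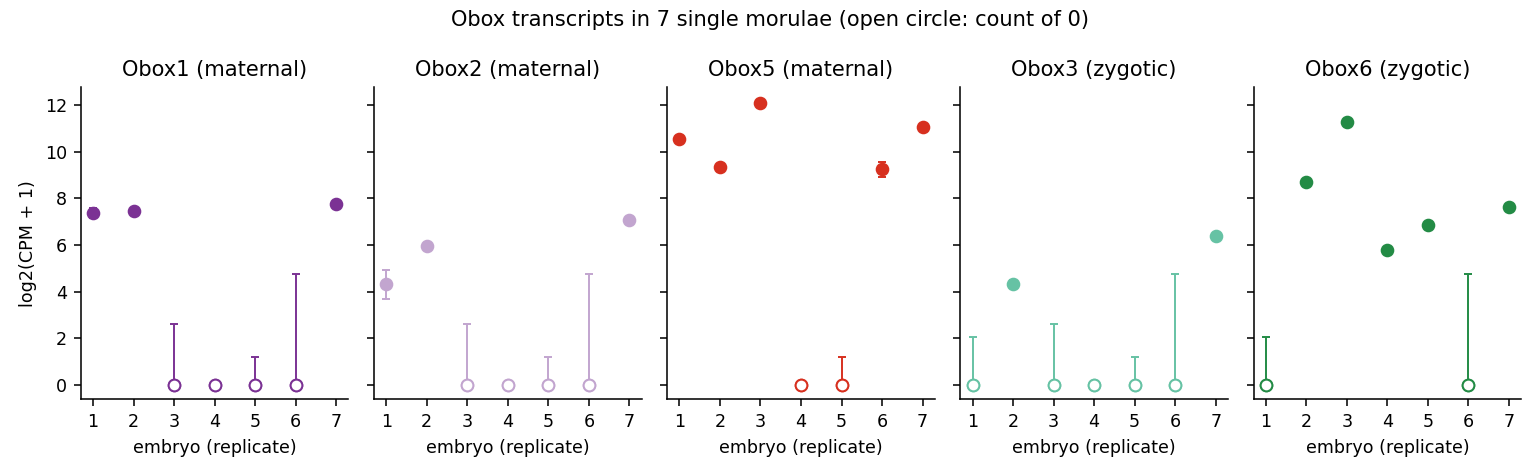
Level of each member in each embryo, as log2(CPM + 1), with maternal members on the left and zygotic members on the right. Vertical bars are 95% exact Poisson intervals of the count, and open circles mark a count of 0. Obox5 is missing in replicates 4 and 5, and Obox6 in replicates 1 and 6.

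How often genes of the table showed such patterns was counted after the members' values were seen, over the 11810 genes with a mean of at least 1 CPM, which include all 5 members. No count in replicates 4 and 5, as for all maternal members and also for zygotic Obox3, was found for 14.8% of these genes. No count in replicates 1 and 6, as for Obox6 and Obox3, was seen in 53.5%. Exactly the embryos of Obox5 were those of 0.339% of genes (40), exactly those of Obox6 of 2.06% (243), those of Obox1 and Obox2 of 1.24% (146), and those of Obox3 of 1.80% (213). Absence in replicates 1 and 6 was thus more common among genes than absence in replicates 4 and 5. The exact set of embryos of any member was shared by few genes, and by the fewest for Obox5.

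Summed per kilobase of transcript, the classes split the embryos in 3 ways. In replicates 1 and 6 the maternal members summed to 945 and 329 CPM per kb, against 0 for the zygotic members. In replicates 4 and 5 the maternal sum was 0, against zygotic sums of 39.7 and 84.5 CPM per kb. Both classes were present in replicates 2, 3 and 7, with maternal sums of 510, 2384 and 1378 CPM per kb against zygotic sums of 320, 1832 and 181 CPM per kb. The maternal sum was the higher in 5 embryos and the zygotic sum in 2. The log2 ratio of maternal to zygotic sums, with 1 CPM per kb added to each, was 9.89, 0.67, 0.38, -5.35, -6.42, 8.36 and 2.92 in replicates 1 to 7. Its mean was 1.49 ± 6.20 (SD, n = 7), so the difference between the classes was much smaller than its spread between embryos. In replicate 3 alone the direction depended on the measure: with the mean of the members' log2 values in place of their sum the ratio was -1.68, because 2 of the 3 maternal members were at 0 there.

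The share of maternal counts among all Obox counts gave the same division without the use of length. It was 100% in replicate 1 (95% Clopper-Pearson interval 99.8 to 100) and in replicate 6 (95.7 to 100). In replicates 4 and 5 it was 0%, with upper bounds of 0.208 and 1.17%. The mixed embryos had maternal shares of 66.8% (66.2 to 67.4) in replicate 2, 63.9% (62.6 to 65.3) in replicate 3 and 89.8% (89.5 to 90.1) in replicate 7. Within the maternal class Obox5 gave 73.1 to 100% of counts in the 5 embryos that held the class. Within the zygotic class Obox6 gave 70.5 to 100%, and Obox3 reached 29.5% in replicate 7 and 4.40% in replicate 2.

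**Figure D3:**
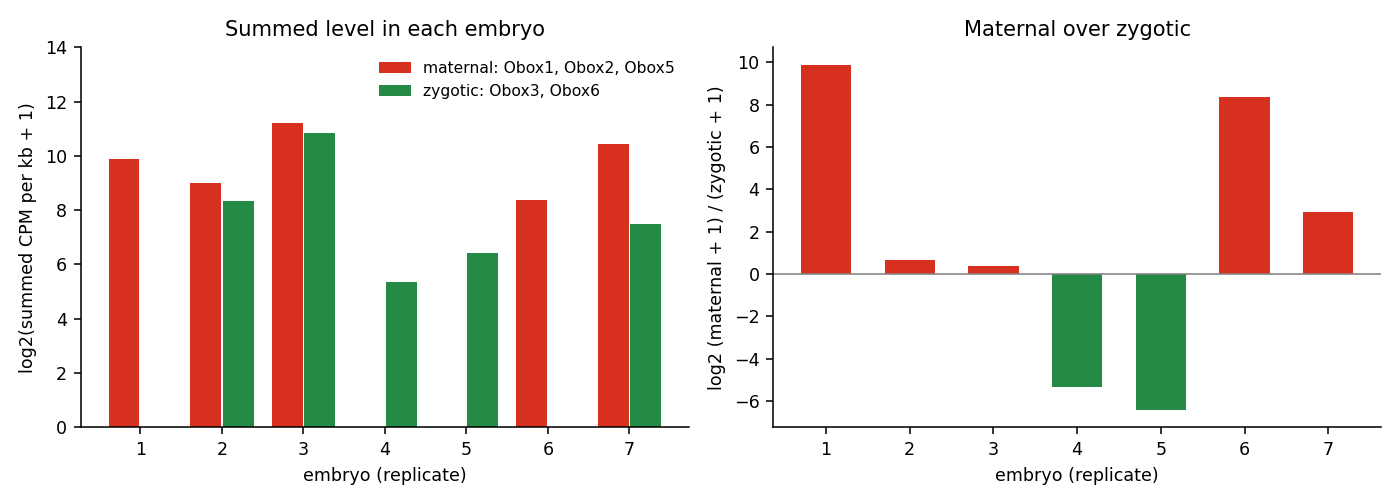
Left, summed level of the maternal and zygotic members in each embryo, as log2(summed CPM per kb + 1). Right, log2 ratio of the 2 sums, which is above 0 in replicates 1, 2, 3, 6 and 7 and below 0 in replicates 4 and 5.

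Per kilobase, the mean level over the 7 embryos fell in the order Obox5, Obox6, Obox1, Obox2, Obox3. These levels were 719 ± 845 CPM per kb for Obox5, 345 ± 665 for Obox6, 52.4 ± 65.9 for Obox1, 20.9 ± 34.6 for Obox2 and 6.31 ± 13.3 for Obox3 (SD, n = 7). No pair of neighbours in this order differed by more than the spread of their difference. Obox5 exceeded Obox6 by 374 ± 432 CPM per kb and was the higher in 5 embryos and the lower in 2. Obox6 exceeded Obox1 by 292 ± 685 CPM per kb and was the higher in 5 embryos and the lower in 1. Lengths were those of the longest annotated transcript, which for Obox3 is a retained-intron model of 2287 bases, against 1979 for its longest coding transcript.

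The spread of each member between embryos was set against that of other genes. On the log2 CPM scale the SD was 6.13 for Obox5, 5.18 for Obox1 and 4.32 for Obox2, and 5.23 for Obox6 and 3.73 for Obox3, against a median SD of 3.63 over all 11810 genes. The SD of Obox5 was larger than that of 99.9% of genes, and that of Obox3 larger than 54.0%. A test in edgeR of whether a gene's quasi-likelihood dispersion exceeds that of genes of like abundance called 0 of the 5 members at an adjusted p of 0.05, where 0% of all 11810 genes were called. The adjusted p was 0.869 for each member in edgeR, with unadjusted p of 0.193 for Obox5, 0.256 for Obox1, 0.422 for Obox2, 0.411 for Obox3 and 0.395 for Obox6. Unadjusted p was under 0.05 for 67 genes, and DESeq2 marked 0 genes as dispersion outliers. The common dispersion over genes was 9.03, and a p above the threshold at that scatter does not show that a member varied no more than other genes.

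Patterns over the embryos were compared by Pearson's r of log2 CPM over 7 embryos, as a description. All points of a correlation come from the same libraries, whose depth and shared counts of 0 enter every r. The 3 genes most like Obox5, among 5281 with a count in at least 4 embryos, were Npm2 (r = 0.9999), Bmp15 (r = 0.997) and Oog3 (r = 0.996). Npm2, an oocyte nucleoplasmin that acts on sperm chromatin, had 185, 90.0, 416, 0, 0, 107 and 269 CPM in replicates 1 to 7. Bmp15, a growth factor secreted by the oocyte, had 1893, 488, 2939, 0.0604, 0, 279 and 2113 CPM. Both were at or near 0 in replicates 4 and 5 and highest in replicate 3 among all embryos, as Obox5 was. Spearman's rho with Obox5 was 1 for Npm2, 0.991 for Bmp15 and 0.891 for Oog3.

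The genes most like Obox6 were 2310040G24Rik (r = 0.983), Zfp598 (r = 0.979) and Tmem201 (r = 0.978). Tmem201 had 0, 361, 681, 111, 320, 0 and 297 CPM in replicates 1 to 7. For Obox1 they were Tfap2e (r = 0.996), LOC100861621 (r = 0.996) and Tnfsf13b (r = 0.982), and for Obox2 Nfat5 (r = 0.998), Map3k5 (r = 0.982) and LOC100861621 (r = 0.980). For Obox3 they were Il17rd (r = 0.961), B930041F14Rik (r = 0.954) and Tubb3 (r = 0.953). Obox1 and Obox2, with a count in 3 embryos, and Obox3, with a count in 2, fall below the minimum of 4 set for the genes compared, so genes counted in just the same embryos as these members were not among the candidates. The nearest genes of Obox5 were found again among its nearest 20 whichever replicate was left out, whereas those of the other members changed, as given in the closing section.

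Among themselves, Obox1 and Obox2 had the highest likeness, with r = 0.985 and rho = 0.957 for a pair whose reads cannot be separated with certainty. Obox1 and Obox5 had r = 0.56, well below the likeness of Obox5 to Npm2. The leading members of the 2 classes, Obox5 and Obox6, had r = -0.07 and rho = 0.491. Obox3 was closer to maternal Obox2 (r = 0.844) and Obox1 (r = 0.742) than to Obox6 (r = 0.388). The classes thus did not fall into 2 blocks by pattern.

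**Figure D4:**
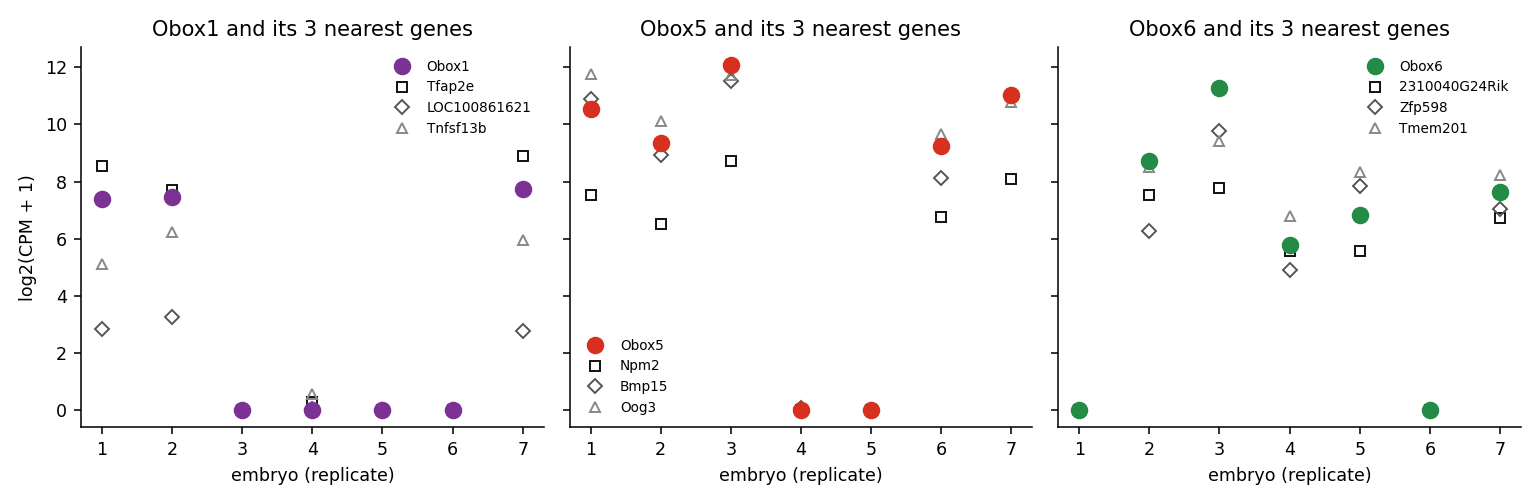
Obox1, Obox5 and Obox6 with the 3 genes of highest Pearson r to each, as log2(CPM + 1) in each embryo. Obox5 and its nearest genes are at or near 0 in replicates 4 and 5, and Obox6 and its nearest genes are at 0 in replicates 1 and 6.

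Gene lists chosen for oocyte and early embryo genes, with earlier results of these data known, put the family in context. Of 27 oocyte transcripts, 26 had a mean of at least 1 CPM, and their median r with Obox5 was 0.63, against -0.10 over all 11809 other genes. With Obox6 the median r of the oocyte transcripts was 0.06, against 0.22 over all genes. For 25 morula lineage genes the median r with Obox5 was -0.44 and with Obox6 0.25. An r of at least 0.9 with Obox5 was reached by 5 of the 26 oocyte transcripts and by 0.635% of all genes. The oocyte list was not emptied where maternal Obox was at 0. Its sum in replicates 4 and 5 was 6628 and 998 CPM, against 15986 to 48430 CPM in the other 5 embryos, and 17 and 10 of its 27 genes were counted in replicates 4 and 5. Its leading members by mean CPM were Dppa3, Omt2b, Tcl1 and Zbed3. In replicate 4, Dppa3, which the early embryo also expresses, had 4059 CPM of that sum. Omt2b, Tcl1 and Zbed3 had 1.57, 6.88 and 6.10 CPM in replicate 4, low levels that still lay above the limit of 0.0906 CPM for maternal Obox there. In replicate 5 they had 577, 205 and 89.0 CPM, although Obox5 was at 0.

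Summed levels of the morula lineage list were highest in replicate 4, at 7617 CPM with 24 of 28 genes counted, and between 750 and 3388 CPM in the other 6 embryos. Its leading members were Dab2, Epcam, Klf5 and Krt8. Krt8, a keratin of the trophectoderm, had 1294 CPM in replicate 4, 89.2 CPM in replicate 2 and a count of 0 elsewhere. Epcam, an epithelial adhesion protein, was also highest in replicate 4, at 1499 CPM. Dab2, an endocytic adaptor, was highest in replicate 6, at 3065 CPM against 437 CPM in replicate 4, and Klf5, a lineage regulator, in replicate 3, at 820 CPM against 480 CPM in replicate 4. Replicate 5, the other embryo with Obox6 and no maternal Obox, had a morula lineage sum of 824 CPM with 7 genes counted. The 28 genes of the 2-cell stage present in the table, led by Gm5662, Gm8300, Sp110 and Zfp352, summed to 119 and 645 CPM in replicates 4 and 5, and to between 793 and 3617 CPM elsewhere. The numbers counted did not follow the sums, at 14, 15, 7, 15, 4, 2 and 22 genes in replicates 1 to 7. In replicate 6, which had the highest sum, the counted genes were Gm5662 and Gm8300, at 2428 and 1189 CPM. Sp110 gave 580 CPM of the sum in replicate 5. Zscan4d, a marker of genome activation, had at most 5.72 CPM, in replicate 7. Regulators of genome activation had 8 to 23 of 23 genes counted in an embryo, the fewest in replicate 6, and 2 counted in all 7 embryos, with summed levels of 2932 to 5960 CPM.

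Markers of other cells were counted for the same embryos. Of 14 cumulus and granulosa cell markers, 0 to 3 had a count in any embryo, 8 had none in all 7, and the defining genes Amh, Foxl2 and Fshr were at 0 throughout. The list summed to 201 CPM in replicate 5, nearly all of it Fst, to 143 CPM in replicate 7, nearly all of it Kitl, and to 0 to 12.2 CPM in the other 5. The 12 oviduct and uterine epithelium markers summed to 1088, 1788, 152, 54.1, 1.81, 5114 and 169 CPM in replicates 1 to 7, with 1 to 10 of them counted. The sums were lowest in replicates 4 and 5, where Obox5 was at 0. The 8 of these markers with a mean of at least 1 CPM had a median r of 0.40 with Obox5 and -0.24 with Obox6, against -0.10 and 0.22 over all genes. Blood markers had 0 to 3 genes with a count. They summed to 129 CPM in replicate 6, all of it Csf1r, and to at most 59.3 CPM elsewhere. Of 10 sperm markers, 7 had no count in any embryo. The sperm list summed to 364, 96.9, 244, 55.1, 0, 0 and 216 CPM in replicates 1 to 7, most of it Odf2. Prm2 had 22.0 CPM in replicate 7. The part of the oviduct and uterine signal in the Obox values was not tested.

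**Figure D5:**
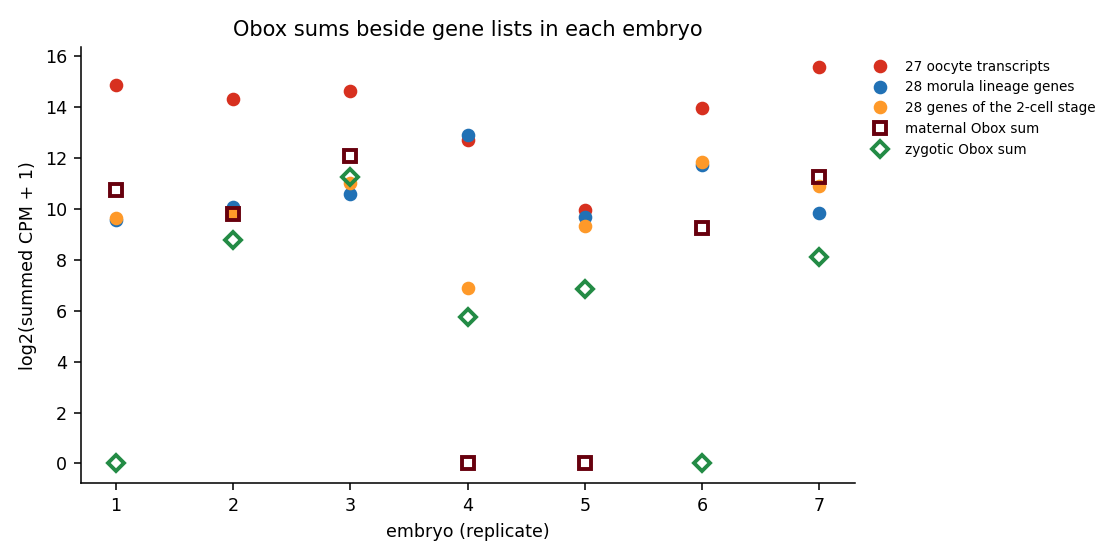
Summed level, as log2(summed CPM + 1), of the maternal and zygotic Obox members and of 3 gene lists in each embryo. Where the maternal Obox sum is 0, in replicates 4 and 5, the oocyte list is at its lowest.

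Neighbours of the cluster did not share the pattern of Obox5. The 4 other protein-coding genes within 100000 bp were Crx, Crxos, Selenow and Nop53, found in the table under these or older symbols. Crx, a photoreceptor homeobox gene, had a count of 0 in all 7 embryos. Crxos, an embryonic homeobox gene listed as Crxos1, had 1597 CPM in replicate 4, where the maternal Obox members were at 0. It had 112, 245, 13.4 and 68.6 CPM in replicates 2, 3, 5 and 7 and 0 in replicates 1 and 6, which are the embryos without Obox6. Crxos1 and Obox6 were thus counted in the same 5 embryos, with their highest levels in different ones. Selenow, listed as Sepw1, had 25.4, 73.5, 0, 105, 94.1, 587 and 200 CPM in replicates 1 to 7. Nop53, listed as Gltscr2, was highest in replicate 5, at 1040 CPM. Rpl13a, the gene mutated in the parents, had 86.5, 119, 5.51, 530, 3.26, 7.16 and 23.5 CPM in replicates 1 to 7, and no embryo was given a genotype from it.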

How the data were processed

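Per the labels' protocols, each embryo gave 1 library, by oligo-dT priming, SMART-Seq v4 and Nextera XT. The deposited table of counts holds whole numbers of reads per gene symbol, and the submitters' processing notes name HISAT2 2.0.5, featureCounts 1.5.0-p2 and GRCm38. The deposited log2 table matched, to within 4.97e-14, quantile-normalized log2 CPM of these counts, and served as an alternative. The sources used here give neither the annotation nor the handling of strand and shared reads.

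CPM are counts over the library total. Levels per kb used the longest GENCODE M21 transcript, and 22468 symbols had a GENCODE name. The test of spread used edgeR 4.0.16 under R 4.3.3 with TMM factors and Benjamini-Hochberg adjustment over 11810 genes of mean CPM 1 or more. It was tried on simulated data in which most genes had a dispersion below the common 9.03 of these libraries. Those data cannot show what the test would find at this scatter. DESeq2 1.42.0 was an alternative. log2 CPM had a prior count of 2. Intervals used SciPy 1.17.1 and alignments Biopython 1.88. No genome sequence or protein table was used, so words were searched in transcripts and identity is of coding bases.

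The members and lists were chosen with earlier results of these data known. Genes named were the members, the 3 genes most like each, the leading members of each list, neighbours within 100000 bp and Rpl13a, besides genes stated as chosen after their values were seen. Nanog, Cdx2, Pou5f1, Zscan4d, Amh, Foxl2 and Fshr were named later from the lists as defining markers. The leading regulators of genome activation are not reported here.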

Additional observations from a re-analysis of the deposited data

How the results depend on the processing

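The median log2 ratio of maternal to zygotic sums was 0.67. It ranged between 0.38 and 1.23 with CPM sums, lengths counted in words found in no other gene, another pseudocount, the mean of members, the authors' log2 table, and, chosen after seeing the data, coding transcripts as length, Gm4745 among the maternal members, or Obox5 against Obox6. Without 1 replicate it was 0.53 to 1.80, with the maternal sum higher in 4 to 5 embryos. In replicate 3 the ratio was -1.68 with the mean of log2 values and -1.94 in the authors' table, so that the maternal class was then higher in 4 embryos. The number of members past the test of spread was 0 under every alternative run, with at least 7716 genes tested.

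Likeness was the least stable result. Of a member's 3 nearest genes, those found among the nearest 20 were 1 for Obox1, 0 for Obox2 and 1 for Obox3 with Spearman's rho, and 1 for Obox2 and 0 for Obox3 in the authors' table. Without 1 replicate they were 0 to 3 for Obox1, 1 to 3 for Obox2, 3 for Obox5, 0 to 3 for Obox3 and 1 to 3 for Obox6. Words of 100 bases shared with another gene made up 40.9% of Obox1, 42.5% of Obox2, 0.115% of Obox5, 12.0% of Obox3 and 0% of Obox6. Without replicate 7 the SD of Obox3 was 2.62. The cause of these shifts was not tested. No fit with the replicate number as a block was possible because the 7 embryos form 1 group; ratios and differences between genes were taken within embryos. In replicate 6 a gene under 21.5 CPM could go uncounted.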

Other observations

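Other homeobox genes of the oocyte and embryo were unevenly present in the same embryos. Of 46 in the table, 3 to 26 had a count in an embryo, with the most in replicate 4 and the fewest in replicate 5. The leading ones by mean CPM were Crxos1, Meis2, Sebox and Tgif2. Tgif2 had 848, 121, 0, 17.6, 0, 0 and 125 CPM in replicates 1 to 7, a set of embryos that matched no Obox member. Sebox, a maternal homeobox gene, had 606, 1047 and 938 CPM in replicates 1, 2 and 7, the embryos with Obox1 and Obox2, and at most 2.76 CPM elsewhere. Meis2, a partner of Hox and Pbx proteins, had 297, 59.1, 373, 50.1 and 90.2 CPM in replicates 1, 2, 3, 6 and 7, the embryos with Obox5, and 0 in replicates 4 and 5. Nobox, an oocyte regulator, had 121 CPM in replicate 7 and at most 10.5 CPM elsewhere, and was chosen after its values were seen.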
